A study of Sus scrofa with 12 samples.

Results

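Splicing factor genes are the genes for proteins that recognise the ends of introns and remove them from newly made transcripts. They were chosen here by symbol: every row of the deposited count table whose symbol began with SRSF, SNRP, SF3A, SF3B, PRPF, HNRNP or U2AF (followed by a digit where the family is numbered), together with RSRP1, TRA2A and TRA2B. This gave 61 of the 29329 genes in the table, and no measured value entered the choice. By role they were 11 SR proteins, 3 genes formed by TRA2A, TRA2B and RSRP1, 9 Sm and other small nuclear ribonucleoprotein (snRNP) proteins, 8 subunits of SF3A and SF3B, 3 U2AF subunits, 12 PRPF proteins and 15 heterogeneous nuclear ribonucleoproteins (hnRNPs). The hnRNP rows included HNRNPD and HNRNPDL, and the SNRP rows held the Sm proteins SNRPB, SNRPD1, SNRPD2, SNRPE, SNRPF and SNRPG beside the U1 proteins SNRPA and SNRPC and the U2 protein SNRPA1.

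The embryos were porcine (Sus scrofa), made by in vitro fertilisation and profiled by SMART-seq, in which an oligo(dT) primer copies polyadenylated RNA into full-length cDNA that is then amplified by PCR. The 12 libraries formed 4 groups of 3, named here by their titles: con-2c and con-4c, with the treatment given as blank control, and si-2c and si-4c, from embryos injected with Si-CCNB2, a short interfering RNA that targets mRNA of the mitotic cyclin CCNB2. Strain, embryo sex and hours of culture were not analysed here. Each library was a pool of several embryos, so neither single embryos nor single blastomeres were resolved, and in such bulk samples fewer cells of a type and less RNA per cell cannot be told apart. The study's methods describe negative controls for its microinjections, handled like the treated embryos, and name the sequenced controls both normal and the NC group of Si-CCNB2, while the labels have a blank control. These sources do not settle whether the sequenced controls received an injection, and any difference of si from control libraries may include the injection.

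Titles and tissue labels gave opposite stages in all 12 libraries: libraries titled 2c had the tissue label 4-cell and libraries titled 4c the tissue label 2-cell. Groups follow the titles throughout. Exchanging the stages would invert each stage difference but would not change which libraries are compared. Library totals lay between 27785233 and 39510908 counts. CCNB2 checked the knockdown: it had 444 to 487 CPM (counts scaled to a common library total) in con-2c and 429 to 510 CPM in con-4c, against 17.8 to 28.8 CPM in si-2c and 40.3 to 46.8 CPM in si-4c. All 9 oocyte markers found in the table (of 10 listed) were detected in every group. Of the cumulus cell markers (8 of 12 found), HAS2, CYP11A1 and FSHR were at or near 0, with at most 0.228 CPM in any group mean. CYP19A1 and STAR were low but above that, with group means of 0.208 to 0.715 and 0.356 to 0.811 CPM, and were called in no comparison. Of the other genes of that list, PTX3 was called higher for si-2c against con-2c (no count in con-2c, 0.604 ± 0.222 CPM in si-2c) and TNFAIP6 lower in si-4c against con-4c (0.090 ± 0.156 against 1.04 ± 0.125 CPM). The sperm list (4 of 10 found), mostly ODF2, summed to 6.92 to 9.62 CPM in con-2c, 10.3 to 14 in con-4c, 10.6 to 16.3 in si-2c and 9.77 to 11.8 in si-4c. AKAP4 of that list had no count in con-2c or si-4c, 0.349 ± 0.316 CPM in con-4c and 0.648 ± 0.495 CPM in si-2c. At this low level it was called higher in con-4c and si-2c than con-2c, and lower in si-4c than con-4c and si-2c. In con-4c against con-2c, 3 of the 9 oocyte markers were called lower (BTG4, OOEP and ZP4), and 8 passed the adjusted p in that direction. BMP15 did not pass there (0.15, edgeR adjusted p 0.113) and was higher in si-2c than con-2c (0.47, adjusted p 8.55e-05). The summed CPM of the oocyte markers, mostly from BTG4, an adaptor for mRNA deadenylation, moved with the groups. It was 19388 to 24517 in con-2c and 22482 to 24660 in si-4c, but 9651 to 10515 in con-4c and 9932 to 11632 in si-2c. The sum of the cumulus list, nearly all VCAN and so not showing PTX3 or TNFAIP6, moved in the same way (291 to 368, 291 to 300, 175 to 186 and 169 to 197 CPM in the same order). The sum of the stromal list (5 of 7 found) moved the other way at a low level. It was 7.26 to 8.50, 6.39 to 7.11, 10.9 to 14.3 and 9.99 to 12.7 CPM in the same order. COL3A1, with no count in con-2c or si-4c, COL1A1 and PDGFRA were called lower in si-4c than con-4c. COL1A2 and DCN were called in no comparison, with group means of 3.23 to 3.58 and 1.19 to 1.66 CPM. The part of these in the results below was not tested.

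Introns are removed by the spliceosome, which is built from small nuclear RNAs and proteins on each new transcript. The U1 snRNP binds the start of the intron, the U2AF proteins read the pyrimidine tract and AG at its end, and SF3A and SF3B hold the U2 snRNP at the branch point, while several PRPF proteins belong to the tri-snRNP and to the complexes that activate the catalytic core. SR proteins and the related TRA2 proteins bind exons and promote the use of nearby splice sites, and hnRNPs often act against them or on transport and stability of the RNA. The early embryo first lives on spliced mRNA stored by the oocyte, and needs splicing for its own transcripts once its genome becomes active.

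All 61 members passed the filter on low counts, together with 17995 genes in all. Counts of members ran from 12 to 121888 per library, and 12 members had fewer than 100 counts in at least 1 library, among them RSRP1, SRSF6, SNRPB, SF3B5, HNRNPL, U2AF1L4 and HNRNPUL2. Levels are given as CPM scaled by the TMM method, with the mean ± SD of n = 3 libraries. CPM is not corrected for transcript length, so levels are compared between groups and not between genes. A member was called when edgeR's quasi-likelihood test gave a Benjamini-Hochberg adjusted p below 0.05 over all tested genes and the log2 fold change was 1 or more in size.

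The first comparison asked how the members differed between the control title stages. In con-4c against con-2c, 16 members were called higher and 2 lower, that is 26.2% and 3.28% of the 61. Over all tested genes 14.4% were called higher and 3.25% lower. The median log2 fold change was 0.42 over the members and 0.11 over all tested genes. The called members lay unevenly over the classes: 7 of 11 SR proteins, TRA2B and RSRP1, and 3 of 12 PRPF proteins were higher, against SNRPB alone among the 9 snRNP proteins, SF3B5 alone among the 8 SF3 subunits and 2 of 15 hnRNPs. The lower members were SNRPF and U2AF1L4, and their number was 4 without con-4c replicate 1 and 1 without con-4c replicate 3. The 3 libraries of con-4c and those of con-2c did not overlap in 45 members, 73.8% of them where 48.6% of all tested genes had no overlap.

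The si-2c libraries were then set against con-2c. Here 10 members were called higher and 1 lower, and over all tested genes 10.7% were called higher and 1.8% lower. The median was 0.11 over the members and 0.12 over all genes. The number lower was 2 without con-2c replicate 2, si-2c replicate 1 or si-2c replicate 2. In si-4c against con-4c, 1 member was called higher and 16 lower, against 3.12% and 15.8% of all tested genes, with medians of -0.44 over the members and -0.11 over all genes. The groups did not overlap in 44 members in the first of these comparisons (41.7% of all tested genes) and in 50 in the second (50.9% of all tested genes). The number higher was 2 without con-4c replicate 2 or si-4c replicate 2 and 0 without si-4c replicate 1. In si-4c against si-2c, 1 member was called higher (2 without si-2c replicate 2 or si-4c replicate 3) and 10 lower, where 1.47% and 11.9% of all tested genes were. The comparisons share libraries pairwise and are not independent of each other.

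**Figure D1:**
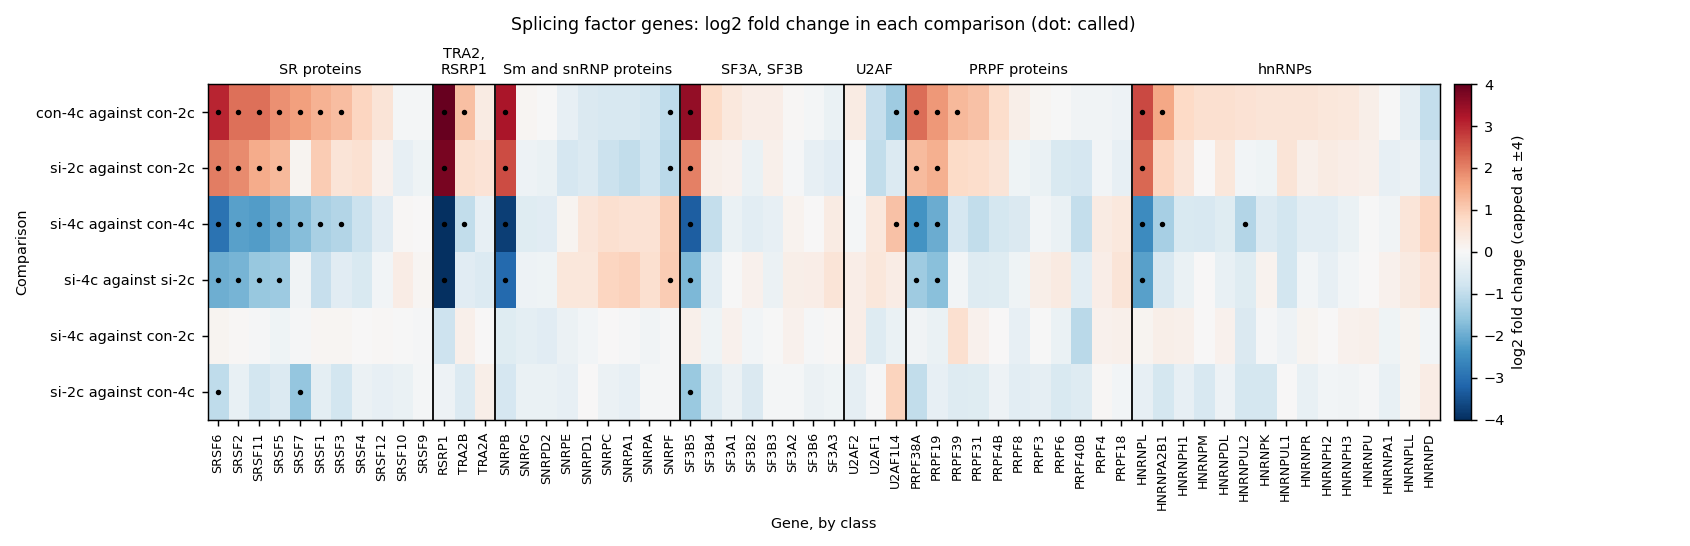
Log2 fold change of 60 of the 61 splicing factor genes (columns, grouped by class) in 6 comparisons (rows), with red for higher and blue for lower in the first-named group, colours capped at 4 on either side, and a dot where the gene was called. The dots lie mainly in the SR, TRA2 and RSRP1 columns and in single members of the other classes, 18 in con-4c against con-2c, then 3 in si-2c against con-4c, with none in si-4c against con-2c.

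RSRP1, an arginine and serine rich protein named for its likeness to SR proteins and little studied, lies on chromosome 6 at 82850947 to 82861578 (Sscrofa11.1). Its level was 3.34, 4.04 and 2.95 CPM in the con-2c libraries and 52.5, 60.0 and 54.1 CPM in the con-4c libraries. The si-2c libraries had 49.1, 47.0 and 47.8 CPM and the si-4c libraries 2.04, 1.85 and 1.97 CPM. All con-4c and si-2c values thus lay above all con-2c and si-4c values. RSRP1 was 16.1-fold higher in con-4c than con-2c (log2 fold change 4.01, SE 0.13, adjusted p 3.56e-13) and 28.4-fold lower in si-4c than con-4c (-4.83, SE 0.13, adjusted p 5.81e-14), the largest fold change of any member in either comparison. In si-2c it was 13.9-fold above con-2c (log2 fold change 3.80, SE 0.12, adjusted p 1.34e-12).

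TRA2A and TRA2B are paralogs that bind GAA-rich exonic enhancers. TRA2B (chromosome 13, 123760008 to 123780919) had 62.2, 57.4 and 46.2 CPM in con-2c and 128, 129 and 125 CPM in con-4c. It had 81.2, 84.9 and 93.7 CPM in si-2c and 71.9, 57.3 and 61.6 CPM in si-4c. The si-2c libraries stood between the control groups and overlapped neither, while si-4c overlapped con-2c. TRA2B was higher in con-4c than con-2c by 1.21 on the log2 scale (SE 0.11, adjusted p 1.85e-07) and passed the adjusted p without the minimum fold for si-2c against con-2c (0.65, adjusted p 2.24e-04). Its call in si-4c against con-4c stood at the minimum fold itself (-1.0, SE 0.11, adjusted p 1.49e-06), and leaving out si-4c replicate 2 gave -0.93, under it. TRA2A had 17.8, 14.3 and 16.1 CPM in con-2c, 23.8, 23.3 and 23.6 CPM in si-2c, 17.4, 20.9 and 21.9 CPM in con-4c and 15.1, 18.0 and 15.1 CPM in si-4c. Its highest values were in si-2c, where it passed the adjusted p against con-2c (0.55, SE 0.12, adjusted p 0.0027) without reaching the minimum fold, and it did not pass for con-4c against con-2c (0.32, adjusted p 0.0535).

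The SR proteins were the class with the most calls. SRSF6 (chromosome 17, 46119612 to 46122540), a regulator of exon inclusion, had 3.60, 2.79 and 3.57 CPM in con-2c and 29.4, 24.8 and 29.0 CPM in con-4c. It had 11.4, 12 and 18.0 CPM in si-2c and 2.82, 3.56 and 4.30 CPM in si-4c. Every con-4c value lay above every si-2c value, and both groups lay above con-2c and si-4c, which overlapped. The difference was 8.36-fold for con-4c against con-2c (log2 fold change 3.06, SE 0.21, adjusted p 4.54e-09) and 4.16-fold for si-2c against con-2c (2.06, SE 0.20, adjusted p 8.07e-07). SRSF2, which binds exons and also acts in transcription elongation, had 6.14 ± 1.64 CPM in con-2c, 22.9 ± 3.27 in si-2c, 28.4 ± 3.04 in con-4c and 6.32 ± 0.471 in si-4c. It was called higher in con-4c and for si-2c against con-2c (2.21 and 1.9, adjusted p 4.67e-08 and 4.53e-07) and lower for si-4c against con-4c (-2.16, adjusted p 5.57e-08).

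SRSF11, SRSF5 and SRSF3 had the smallest p-values of the class between the control groups. SRSF11, an SR-like protein that binds U2AF, had 25.8, 22.7 and 30.7 CPM in con-2c, 79.6, 73.4 and 66.3 CPM in si-2c, 123, 124 and 115 CPM in con-4c and 25.8, 24.9 and 25.9 CPM in si-4c. SRSF5 had 30.5, 33.6 and 35.0 CPM in con-2c, 85.5, 82.2 and 75.8 CPM in si-2c, 119, 117 and 120 CPM in con-4c and 32.0, 27.9 and 28.8 CPM in si-4c. For this pair of genes the si-2c libraries lay between the control groups without overlap with either. Log2 fold changes in con-4c against con-2c were 2.19 for SRSF11 (SE 0.11, adjusted p 8.20e-11) and 1.84 for SRSF5 (SE 0.09, adjusted p 6.21e-11), while si-2c against con-2c gave 1.47 and 1.30 (adjusted p 1.94e-08 and 8.68e-09). SRSF3, the smallest SR protein and also a factor in mRNA export, had 64.6, 61.8 and 66.2 CPM in con-2c, 87.2, 88.3 and 98.7 CPM in si-2c, 149, 156 and 150 CPM in con-4c and 68.9, 70.0 and 64.0 CPM in si-4c. It was called between the control groups (1.24, SE 0.08, adjusted p 1.92e-09), whereas in si-2c against con-2c its difference of 0.51 passed the adjusted p (8.43e-05) but not the minimum fold.

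SRSF7, a close relative of SRSF3 that likewise binds export factors, had si-2c levels like those of con-2c. Its level was 34.4, 40.0 and 43.4 CPM in con-2c and 113, 132 and 125 CPM in con-4c, but 38.8, 40.0 and 48.3 CPM in si-2c and 39.7, 37.1 and 37.7 CPM in si-4c. The si-2c values overlapped those of con-2c and lay below all con-4c values. SRSF7 was 3.14-fold higher in con-4c than con-2c (log2 fold change 1.65, SE 0.11, adjusted p 3.12e-09), whereas si-2c against con-2c gave a log2 fold change of 0.11 (SE 0.11, adjusted p 0.497). Of the 7 SR proteins called in con-4c against con-2c it was the single one that did not pass the adjusted p when si-2c was set against con-2c. SRSF1 passed it there with a log2 fold change of 1.0 that lay just under the minimum (adjusted p 1.29e-05), at 15.7 ± 1.03 CPM in con-2c and 31.2 ± 0.903 CPM in si-2c.

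The other 4 SR proteins were not called in these comparisons. SRSF4 passed the adjusted p for con-4c against con-2c (0.86 with adjusted p 0.00406), for si-2c against con-2c (0.61, adjusted p 0.0363) and for si-4c against con-4c (-0.86, adjusted p 0.00387). SRSF10, a splicing repressor when dephosphorylated, stood at 370 ± 29.4 CPM in con-2c and at 352 ± 3.37 CPM in con-4c (-0.07, adjusted p 0.501). In si-2c it had 293 ± 13.7 CPM and passed in the lower direction against con-2c (-0.34, adjusted p 0.00225). With library totals as the scaling, that log2 fold change was 0.07. SRSF9 had the largest p of the class between the control groups: 42.3 ± 4.67 CPM in con-2c, 37.9 ± 1.02 in si-2c, 39.9 ± 1.44 in con-4c and 40.4 ± 3.69 in si-4c. SRSF12 had 4.65 ± 0.808 CPM in con-2c against 6.58 ± 0.943 CPM in con-4c (0.50, adjusted p 0.0625). Over the 11 SR genes the median was 1.38 for con-4c against con-2c, 0.61 for si-2c against con-2c and -1.31 for si-4c against con-4c, beside 0.11, 0.12 and -0.11 over all tested genes.

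**Figure D2:**
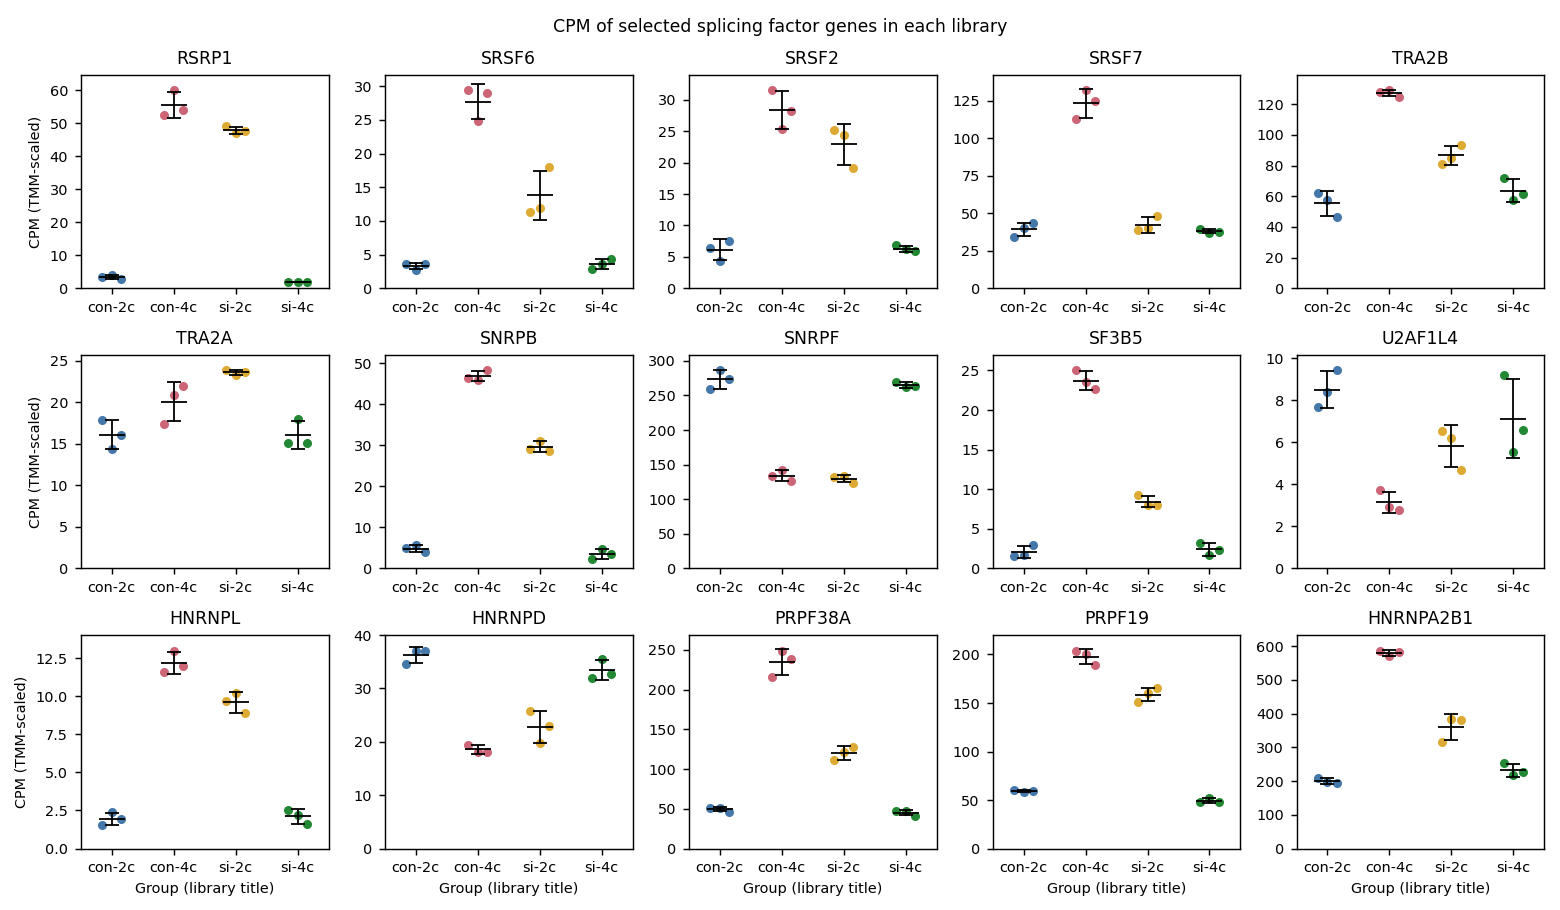
CPM (vertical axis, TMM-scaled, starting at 0) of 15 splicing factor genes in each of the 12 libraries, by title group, with points for libraries and black bars for the mean and SD of 3 libraries. RSRP1, SNRPB, SRSF2, HNRNPL and PRPF19 are high in con-4c and si-2c and low in con-2c and si-4c, SRSF7 is high in con-4c alone, and SNRPF and HNRNPD have the opposite order.

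Among the snRNP proteins, SNRPB stood apart from the others. It encodes SmB, a core protein of the ring that surrounds each spliceosomal snRNA. The symbol is that of the deposited table, and the RefSeq record of this symbol is classed as a long noncoding RNA, so its position is not given. It had 4.90, 5.65 and 3.97 CPM in con-2c, 29.1, 31.1 and 28.7 CPM in si-2c, 46.4, 46.0 and 48.2 CPM in con-4c and 2.31, 4.63 and 3.4 CPM in si-4c. The groups con-4c and si-2c were separate from each other and from the low groups. SNRPB was 9.68-fold higher in con-4c than con-2c (log2 fold change 3.28, SE 0.18, adjusted p 4.37e-10), 6.12-fold higher in si-2c than con-2c (2.61, SE 0.18, adjusted p 1.20e-08) and 13.6-fold lower in si-4c than con-4c (-3.76, SE 0.19, adjusted p 1.07e-10).

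Between the control groups, the Sm proteins that join SNRPB in the ring were higher in con-2c or differed little. SNRPF had 259, 286 and 274 CPM in con-2c, 132, 133 and 124 CPM in si-2c, 133, 142 and 126 CPM in con-4c and 270, 262 and 264 CPM in si-4c. It was called lower in con-4c (-1.03, SE 0.07, adjusted p 9.83e-09) and in si-2c (-1.07, SE 0.07, adjusted p 1.07e-08) against con-2c and higher in si-4c than si-2c (1.03, adjusted p 1.68e-08), and its difference in si-4c against con-4c lay just under the minimum fold (0.99, adjusted p 1.62e-08). The call in con-4c was close to that fold as well, with -0.99 without con-4c replicate 3. SNRPD1 had 902, 999 and 926 CPM in con-2c, 656, 668 and 598 CPM in si-2c, 619, 649 and 612 CPM in con-4c and 933, 809 and 891 CPM in si-4c. It passed the adjusted p between the control groups without the minimum fold (-0.59, SE 0.08, adjusted p 1.23e-05). SNRPE passed in the same direction (-0.34, adjusted p 0.0094), while SNRPD2 and SNRPG had log2 fold changes of -0.01 and 0.08 (adjusted p 0.972 and 0.516). Of the U1 and U2 proteins, SNRPC (-0.63, adjusted p 4.93e-05) and SNRPA1 (-0.64, adjusted p 2.13e-04) passed in the lower direction, and SNRPA did not pass at 2.21 to 4.90 CPM in the control libraries (-0.73, adjusted p 0.0905).

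The contrast within the Sm ring could be read inside each library, where scaling does not enter. For every 1000 counts of SNRPD1 there were 5.12 ± 0.736 counts of SNRPB in con-2c, 46.3 ± 1.85 in si-2c, 74.9 ± 3.93 in con-4c and 4.01 ± 1.63 in si-4c. Such ratios show unequal change of a pair and not which gene changed, and the pairs were chosen after the values had been seen. The median log2 fold change over the 9 snRNP proteins was -0.59 for con-4c against con-2c and 0.49 for si-4c against con-4c, opposite in sign to the median of all tested genes in each (0.11 and -0.11). The class was mixed in si-4c against con-4c, where 4 of the 9 passed the edgeR adjusted p higher and 3 lower. The lower ones were SNRPB, SNRPG (-0.48, adjusted p 2.19e-04) and SNRPD2 (-0.44, adjusted p 8.78e-04).

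SF3B5, the smallest subunit of the SF3B complex, was the single one of the 8 SF3A and SF3B genes called between the control groups. It lies on chromosome 1 at 21231264 to 21232014 and had 1.56, 1.72 and 2.95 CPM in con-2c, 9.21, 8.01 and 8.02 CPM in si-2c, 25.0, 23.5 and 22.6 CPM in con-4c and 3.24, 1.68 and 2.30 CPM in si-4c. The si-2c libraries lay between the control groups with no overlap. SF3B5 was 11.4-fold higher in con-4c (log2 fold change 3.51, SE 0.25, adjusted p 7.64e-09) and 4.04-fold higher in si-2c (2.02, SE 0.24, adjusted p 6.75e-06) than in con-2c, and 9.86-fold lower in si-4c than con-4c. The other subunits were not called between the control groups. SF3B4 had 28.8, 20.1 and 19.6 CPM in con-2c, 26.4, 27.4 and 27.0 CPM in si-2c, 35.8, 39.8 and 41.1 CPM in con-4c and 18.8, 23.0 and 18.8 CPM in si-4c, which passed the adjusted p between the control groups (0.77, adjusted p 3.04e-04). SF3A1 had 32.4, 36.7 and 38.2 CPM in con-2c, 41.7, 40.2 and 39.9 CPM in si-2c, 52.7, 44.4 and 46.1 CPM in con-4c and 35.3, 42.5 and 42.2 CPM in si-4c, and it too passed there (0.42, adjusted p 0.00413). SF3A3 passed in the lower direction (-0.28, adjusted p 0.0118), and SF3A2, with 21 to 48 counts per library, had the largest p (0.04, SE 0.40, adjusted p 0.95). Per 1000 counts of SF3B6, which contacts the branch point adenosine, there were 23.7 ± 9.71 counts of SF3B5 in con-2c, 119 ± 15.1 in si-2c, 284 ± 36.0 in con-4c and 27.8 ± 7.96 in si-4c.

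The U2AF subunits went the other way or did not pass. U2AF1, the small subunit that reads the AG at the end of the intron, had 15.6, 12.2 and 15.6 CPM in con-2c, 8.26, 7.18 and 6.54 CPM in si-2c, 8.29, 8.02 and 6.47 CPM in con-4c and 10.5, 9.17 and 10.6 CPM in si-4c. Its values in si-4c lay between those of con-2c and con-4c without overlap. It passed the adjusted p just under the minimum fold in con-4c (-0.93, SE 0.16, adjusted p 2.16e-04) and si-2c (-0.98, SE 0.16, adjusted p 1.69e-04) against con-2c. U2AF1L4, a paralog of U2AF1, had 7.67, 8.41 and 9.41 CPM in con-2c, 6.55, 6.19 and 4.68 CPM in si-2c, 3.72, 2.92 and 2.80 CPM in con-4c and 9.21, 5.55 and 6.60 CPM in si-4c. It was called lower in con-4c than con-2c (-1.43, SE 0.22, adjusted p 6.96e-05) but higher in si-4c than con-4c (1.18, SE 0.22, adjusted p 4.61e-04), the single member called higher there. Without si-4c replicate 1 that value was 0.95, under the minimum fold. U2AF2, the large subunit that binds the pyrimidine tract, had 49.8, 47.9 and 61.8 CPM in con-2c, 61.6, 62.4 and 34.9 CPM in si-2c, 75.3, 62.5 and 63.9 CPM in con-4c and 69.3, 63.2 and 59.6 CPM in si-4c, with si-2c replicate 3 below all other libraries. It did not pass for con-4c against con-2c (0.34, SE 0.17, adjusted p 0.137).

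Of the PRPF proteins, 3 were called higher in con-4c than con-2c. PRPF38A, a factor needed to activate the assembled spliceosome, whose RefSeq record is likewise classed as noncoding, had 51.5, 51.0 and 46.4 CPM in con-2c, 111, 122 and 128 CPM in si-2c, 216, 249 and 239 CPM in con-4c and 47.7, 46.7 and 41.2 CPM in si-4c. PRPF19, the ubiquitin ligase at the core of the complex named after it, had 60.8, 58.5 and 59.6 CPM in con-2c, 151, 160 and 165 CPM in si-2c, 204, 200 and 189 CPM in con-4c and 48.4, 52.0 and 48.1 CPM in si-4c. For both genes the con-4c libraries were highest, the si-2c libraries next and the other groups lowest, with no overlap between these levels. Log2 fold changes were 2.24 and 1.73 for con-4c against con-2c (SE 0.09 and 0.07, adjusted p 7.15e-12 and 1.63e-11), and -2.38 and -1.99 for si-4c against con-4c (with adjusted p 3.21e-12 and 2.37e-12). PRPF39, a U1-associated protein, had 4.61, 6.0 and 5.93 CPM in con-2c, 8.62, 9.29 and 10.4 CPM in si-2c, 12.8, 14.6 and 13.6 CPM in con-4c and 9.0, 8.16 and 8.84 CPM in si-4c. It was called between the control groups (1.31, SE 0.15, adjusted p 3.56e-06) and passed the adjusted p under the minimum fold for si-4c against con-4c (-0.66 with adjusted p 0.00229), and unlike the pair before it, its si groups overlapped.

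The other PRPF genes were not called between the control groups. PRPF4B, a kinase of the spliceosome, passed in the higher direction for con-4c against con-2c (0.69, adjusted p 1.30e-05). PRPF8, which forms the centre of the catalytic core, did not pass for con-4c against con-2c (0.24, adjusted p 0.0966) but was lower in si-4c than con-4c (-0.58, adjusted p 4.25e-04). PRPF31 had 12 to 42 counts per library, and its log2 fold change of 1.18 did not pass (SE 0.56, adjusted p 0.115). PRPF6 had the largest p of the class between the control groups, at 7.18 ± 0.712 and 7.13 ± 0.870 CPM.

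Among the 15 hnRNPs, HNRNPL and HNRNPA2B1 were called higher in con-4c than con-2c. HNRNPL binds CA repeats, and lies on chromosome 6 at 47643561 to 47655856. It had 1.56, 2.38 and 1.91 CPM in con-2c, 9.72, 10.2 and 8.88 CPM in si-2c, 11.6, 13 and 12 CPM in con-4c and 2.52, 2.23 and 1.58 CPM in si-4c. The difference was 6.24-fold in con-4c (log2 fold change 2.64, SE 0.21, adjusted p 3.4e-08) and 4.92-fold in si-2c (2.30, SE 0.21, adjusted p 3.01e-07) against con-2c. Its paralog HNRNPLL stood at 2.26 ± 0.500 CPM in con-2c and at 1.76 ± 0.538 CPM in con-4c (-0.37, adjusted p 0.421). HNRNPA2B1, which also reads sorting signals in RNA, had 209, 196 and 194 CPM in con-2c, 315, 385 and 381 CPM in si-2c, 587, 570 and 583 CPM in con-4c and 253, 217 and 226 CPM in si-4c. It was called for con-4c against con-2c (1.54, SE 0.09, adjusted p 5.61e-10) and for si-4c against con-4c (-1.32, SE 0.09, adjusted p 3.56e-09), and passed the adjusted p under the minimum fold for si-2c against con-2c (0.85, adjusted p 1.26e-06).

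HNRNPD (AUF1), a binder of AU-rich elements linked to mRNA decay, had the opposite order to most of its class. Its level was 34.5, 37.1 and 37.1 CPM in con-2c, 25.8, 19.8 and 22.9 CPM in si-2c, 19.5, 18.1 and 18.1 CPM in con-4c and 32.0, 35.5 and 32.7 CPM in si-4c. It passed the adjusted p just under the minimum fold between the control groups (-0.96, SE 0.11, adjusted p 2.19e-06). HNRNPDL, its paralog, went the other way, from 206 ± 21.5 to 320 ± 24.5 CPM (0.64, SE 0.09, adjusted p 3.75e-05). The pair lies close together on chromosome 8, HNRNPDL at 135802530 to 135809871 and HNRNPD at 135844492 to 135862633. For every 1000 counts of HNRNPD there were 5710 ± 836 counts of HNRNPDL in con-2c, 12521 ± 2170 in si-2c, 17314 ± 1829 in con-4c and 6904 ± 855 in si-4c. HNRNPUL2 was called lower in si-4c than con-4c (-1.16, SE 0.31, adjusted p 0.00751) at 39 to 131 counts per library, and without con-4c replicate 1 its value was -0.94, under the minimum fold. HNRNPA1, with 306 ± 24.0 CPM in con-2c beside 299 ± 5.85 CPM in con-4c, had the largest p of the class between the control groups (-0.03, adjusted p 0.766).

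**Figure D3:**
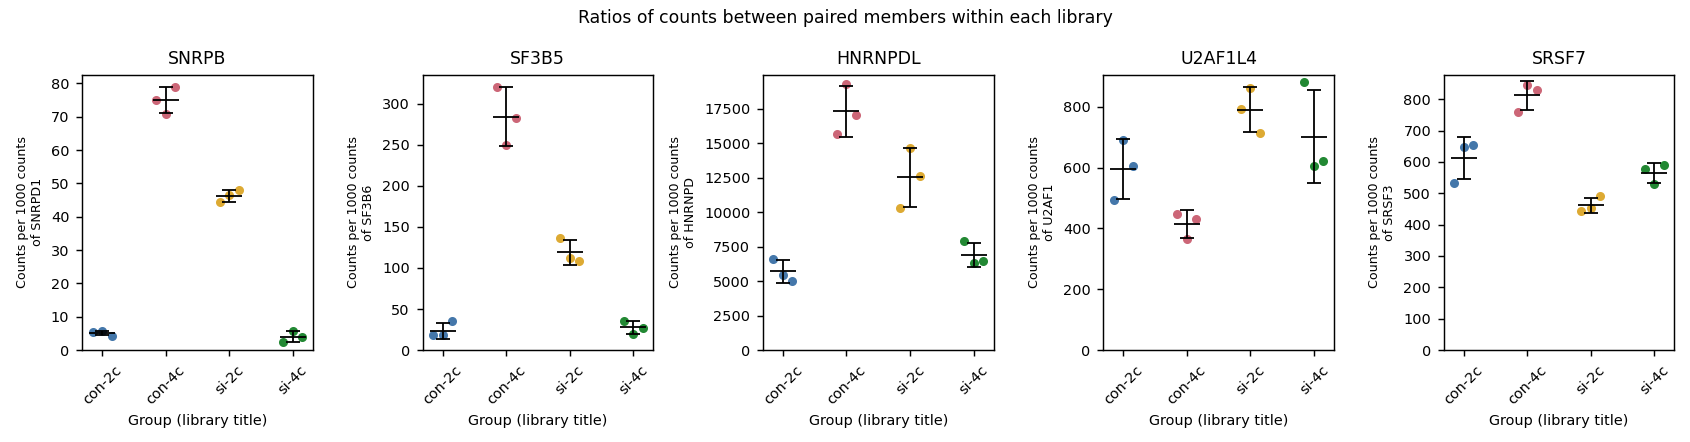
Counts of 1 member for every 1000 counts of another in the same library (vertical axes from 0), for 5 pairs, with points for libraries and black bars for the mean and SD of 3 libraries. SNRPB against SNRPD1 is 74.9 in con-4c and 46.3 in si-2c but 5.12 in con-2c and 4.01 in si-4c, whereas SRSF7 against SRSF3 is lowest in si-2c at 462.

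Whether the difference between title stages was the same in si and in control libraries was tested by the interaction, that is, si-4c minus si-2c, from which con-4c minus con-2c was subtracted. It was called for 30 members, 9 higher and 21 lower, beside 9.87% and 22.5% of all tested genes. The 21 held 8 of the 11 SR genes (all but SRSF9, SRSF10 and SRSF12), RSRP1, TRA2B, SNRPB, SF3B4, SF3B5, 4 PRPF genes and 4 hnRNP genes, from -8.62 for RSRP1 to -1.06 for HNRNPH1. The 9 included SNRPA, SNRPA1, SNRPC, SNRPD1, SNRPF, U2AF1, U2AF1L4 and HNRNPD, from 1.04 for SNRPD1 to 2.06 for SNRPF. The si difference and the control difference, which share no library, had opposite signs in 52 of 61 members (85.2%) and in 77.0% of all tested genes, and their Pearson's r was -0.914 over the 61 members and -0.738 over all tested genes. This r is across genes, which are not independent, and rests in part on the few members with the largest changes. The split of the interaction calls depended on scaling: with library totals in place of TMM factors it was 2 higher and 34 lower (5.56% of the calls higher, against 30.0%), as the median of all tested genes moved from -0.23 to -0.88.

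**Figure D4:**
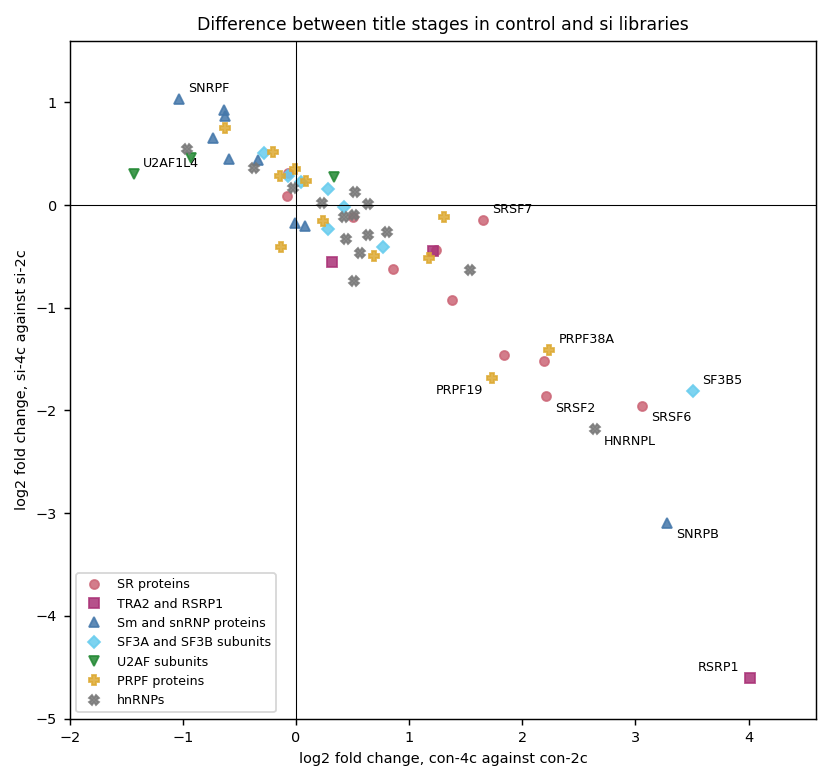
Log2 fold change of each splicing factor gene for con-4c against con-2c (horizontal axis) and for si-4c against si-2c (vertical axis), with 1 point for each of 61 genes and a marker for each class. SNRPF lies at -1.03 and 1.03 and RSRP1 at 4.01 and -4.61. Off the line between them lie SRSF7 at 1.65 and -0.15 and PRPF39 at 1.31 and -0.12. The point furthest left is U2AF1L4, at -1.43 and 0.30.

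The si groups were also set against the control group of the other title. In si-4c against con-2c, 0 members were called in either direction by edgeR, and 0 by DESeq2, with 14 members at an unadjusted p under 0.05 (over all tested genes 0.0333% were called higher and 0.3% lower). RSRP1, SNRPD2 and SNRPG passed the adjusted p under the minimum fold, all lower in si-4c, with log2 fold changes of -0.82 (SE 0.14, adjusted p 0.00993), -0.45 (SE 0.09, adjusted p 0.0285) and -0.40 (SE 0.08, adjusted p 0.0337). RSRP1 had 1.95 ± 0.0956 CPM in si-4c and 3.44 ± 0.552 CPM in con-2c, and SNRPD2 138 ± 1.1 against 188 ± 15.5 CPM, each with no overlap between the groups. None of the 11 SR genes had an unadjusted p under 0.05 here, and their log2 fold changes ran from -0.16 to 0.10. SNRPB had a log2 fold change that did not pass (-0.49, SE 0.19, adjusted p 0.329).

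In si-2c against con-4c, 3 members were called lower and 0 higher, where 1.63% and 0.161% of all tested genes were, and DESeq2 likewise called 3 lower and 0 higher. At an unadjusted p under 0.05 there were 36 members in either direction, and the number called higher was 1 without con-4c replicate 1 or si-2c replicate 3. The 3 lower members were SRSF7 (2.91-fold lower, log2 fold change -1.54, SE 0.11, adjusted p 5.23e-07), SF3B5 (2.82-fold lower, -1.50, SE 0.22, adjusted p 3.29e-04) and SRSF6 (2.01-fold lower, -1.01, SE 0.19, adjusted p 0.0024). Without the minimum fold 23 members passed in the lower direction and 1, U2AF1L4 (0.88, SE 0.22, adjusted p 0.0201), in the higher. The 23 included PRPF38A (-0.97, adjusted p 3.92e-06), SRSF3 (-0.73, adjusted p 1.38e-05), SRSF11 (-0.72, adjusted p 2.43e-04), HNRNPA2B1 (-0.69, adjusted p 7.28e-05), HNRNPK (-0.69, adjusted p 5.53e-04) and SNRPB (-0.66, adjusted p 0.0179). RSRP1, HNRNPL and SRSF2 did not pass, at -0.21 (SE 0.11, adjusted p 0.286), -0.34 (SE 0.19, adjusted p 0.353) and -0.31 (SE 0.17, adjusted p 0.347). The median over the members was -0.31 and over all tested genes -0.02. With library totals as the scaling 1 member was called higher and 2 lower (33.3% of the calls higher, against 0%), and the median of all tested genes was 0.11.

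The order of the group means was also counted. The highest of the 4 means fell in con-4c for 37 members (60.7%, against 35.4% of all tested genes) and in si-2c for 2 members (3.28%, against 23.1% of all tested genes), TRA2A and HNRNPUL1. The lowest mean fell in si-2c for 19 members (31.1%, against 17.1%) and in con-4c for 5 (8.2%, against 27.5%). Summed over the 61 members, the level was 9281 to 10262 CPM in con-2c, 9397 to 9750 in con-4c, 7711 to 8299 in si-2c and 9482 to 10248 in si-4c, so the si-2c libraries lay below all others. The sum is weighted to abundant members of the PRPF and snRNP classes. The PRPF class summed to 3970 to 4683 CPM in con-2c and 3079 to 3412 in si-2c, and the snRNP class to 3139 to 3542 and 2007 to 2343. As a share of all counts, where TMM scaling does not enter, the members took 0.930% to 0.946% in si-2c, which lay between 1.02% to 1.03% in con-4c and 0.860% to 0.893% in the other groups.

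**Figure D5:**
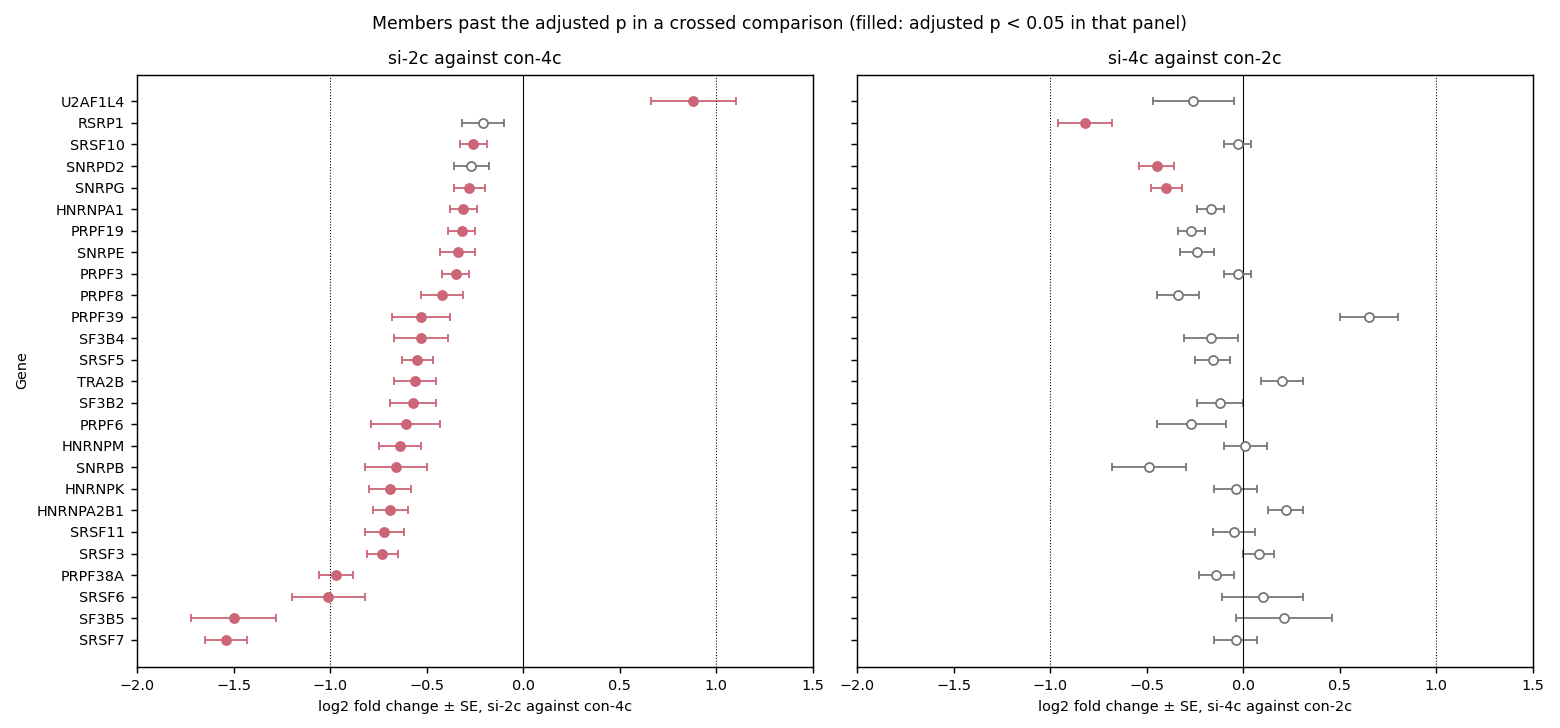
Log2 fold change ± SE (horizontal axes) of the members that passed the adjusted p in a crossed comparison, for si-2c against con-4c (left) and si-4c against con-2c (right), filled where the gene passed in that panel; dotted lines mark the minimum fold. SRSF7, SF3B5 and SRSF6 lie at or beyond the line at -1 on the left and near 0 on the right, where RSRP1, SNRPD2 and SNRPG are filled.

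Other genes of the pathway were taken from 5 lists. Of 53 other spliceosome proteins tested, con-4c had 6 called higher and 1 lower than con-2c, a share of 11.3% and 1.89% beside 14.4% and 3.25% of all tested genes. The higher ones were DHX15, the helicase that takes apart spent spliceosomes (5.81 ± 0.798 to 99.9 ± 6.25 CPM, log2 fold change 4.10), SNRNP48 of the minor spliceosome (0.511 ± 0.163 to 32.3 ± 1.44 CPM), SYF2 (18.0 ± 1.12 to 83.6 ± 5.75 CPM), BCAS2, SNRNP25 and the branch point binder SF1. SNRNP27 of the tri-snRNP was lower (47.7 ± 1.48 to 20.6 ± 2.68 CPM, -1.21). DHX15 was also the single gene of this list called for si-2c against con-4c (log2 fold change -1.13, SE 0.14, adjusted p 7.17e-05), with 45.6 ± 8.42 CPM in si-2c but 6.21 ± 1.23 CPM in si-4c.

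Of 7 SR protein kinases tested, CLK1, which phosphorylates SR proteins in the nucleus, was called higher in con-4c than con-2c (14.3%, where 14.4% of all tested genes were). It had 1.24 ± 0.335 CPM in con-2c, 28.7 ± 6.37 in si-2c, 47.6 ± 2.45 in con-4c and 2.39 ± 0.134 in si-4c, a log2 fold change of 5.26 between the control groups (SE 0.20, adjusted p 2.54e-12) and -4.32 for si-4c against con-4c (SE 0.18, adjusted p 1.16e-11). Its relatives CLK2 and CLK4 passed in the lower direction in con-4c under the minimum fold (-0.72 and -0.46, adjusted p 0.00362 and 0.0222). So did DYRK1A (-0.26, adjusted p 0.0253), while SRPK1 passed in the higher direction (0.47, adjusted p 2.00e-04). Of 10 exon junction and SR-related proteins, SRRM1 was called higher in con-4c (10% of the list, 103 ± 3.95 to 314 ± 19.8 CPM, 1.61) and MAGOH lower (10%, beside 3.25% of all tested genes, 1056 ± 114 to 426 ± 28.2 CPM, -1.31). MAGOH was also lower in si-2c (399 ± 34.2 CPM) than in con-2c and higher in si-4c (967 ± 91.5 CPM) than in con-4c. Of 11 genes of the SMN complex and its methyltransferase partners, which load Sm proteins onto snRNA, PRMT5 (11.2 ± 1.56 to 25.1 ± 2.79 CPM, 1.16) and GEMIN7, at 3.28 ± 0.514 CPM in con-4c and near 0 in con-2c, were called higher (18.2% of the list, beside 14.4% of all tested genes).

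Of 28 other regulators of splice site choice tested, con-4c had 6 called higher and 2 lower than con-2c (21.4% and 7.14%, beside 14.4% and 3.25% of all tested genes). The higher ones included RBM25 (63.8 ± 5.48 to 250 ± 12.9 CPM, log2 fold change 1.97) and the U1-associated protein LUC7L2 (8.89 ± 0.651 to 22.4 ± 0.753 CPM, 1.33), with LUC7L, RBM5 and NOVA1. QKI, a binder of ACUAA elements, was lower (71.8 ± 16.1 to 29.3 ± 1.20 CPM, -1.29), as was KHDRBS2 (-1.07). In si-2c against con-2c 3 of the 28 were called higher and 2 lower (10.7% and 7.14%, beside 10.7% and 1.8% of all tested genes), and in si-4c against con-4c 1 was called higher, QKI, and 7 lower (3.57% and 25.0%, beside 3.12% and 15.8%). In si-4c against con-2c 0 genes of the 5 lists were called by edgeR, with 11 at an unadjusted p under 0.05 and 0 called by DESeq2. LSM7 passed the adjusted p there under the minimum fold, lower in si-4c (-0.50, SE 0.09, edgeR adjusted p 0.02).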

How the data were processed

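Libraries were made by SMART-seq from pools of in vitro fertilised porcine embryos, and groups were taken from their titles. The deposited table held whole-number counts for each Ensembl gene, which the authors had not normalized. The submitters' processing notes name cutadapt 1.9, HISAT2 2.2.1, StringTie 2.1.6, DESeq2 and edgeR with build Sscrofa11.1. The release of the annotation, strand settings and the handling of reads with several matches were not given in the sources used here, so values of members with near-identical copies or processed pseudogenes (HNRNPA1, SNRPE and SNRPG may have such copies) are uncertain, as are those of genes that overlap others. Oligo(dT) priming copies RNA with a poly(A) tail, and no molecular identifiers are mentioned, so reads are not independent molecules.

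The test was edgeR 4.0.16 under R 4.3.3 (glmQLFit and glmQLFTest). All 12 libraries entered 1 fit with the 4 group means, after filterByExpr (17995 of 29329 genes kept) and TMM scaling. Benjamini-Hochberg adjustment ran over all tested genes of a comparison, and calls needed adjusted p below 0.05 with at least 1 unit of log2 change either way, the thresholds of the study, which used DESeq2. DESeq2 1.42.0 served as an alternative. Standard errors (SE) were derived as the fitted log2 value over the root of F. The script was tested on simulated counts with 200 changed genes. Replicates of a group were further apart than sampling noise (7.27 to 38.7 for chi-square over its degrees of freedom), so none was taken for a copy of another. The sources do not say whether the embryos of different libraries came from separate donors or days, so p-values measure the spread between these libraries, which may be technical. The biological coefficient of variation was 27.3%.

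The members, the lists of other genes and the comparisons were chosen with earlier results of these data known. All members may be named. Values in every library are given for RSRP1, TRA2A and TRA2B and for the 3 members of each other class with the smallest p in con-4c against con-2c, and further named were members called against the direction of most of their class, members called in a crossed comparison, and the member of each class with the largest p. Positions come from RefSeq for Sscrofa11.1, where all 61 symbols matched, but the records of SNRPB, PRPF38A and HNRNPU are classed as long noncoding RNA. Of the 61 identifiers, 57 carried in the table of gene names the same symbol as the deposited table, PRPF4B had another name, and SNRPB, SNRPC and SNRPG had none. Protein and promoter sequences were not used here, and the single results of some genes are not reported here. Alternatives were DESeq2, RLE size factors, library totals, filters, no minimum fold, a fit on the compared groups, a replicate block and leaving out each library.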

Additional observations from a re-analysis of the deposited data

Results flagged for a closer look

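The difference between the title stages was not the same in si as in control libraries for 30 members, tested by the interaction term in edgeR (Benjamini-Hochberg adjusted p below 0.05 and an absolute log2 value of at least 1, n = 3 libraries in each of 4 groups). It was lower in si libraries for 21 members (34.4%, beside 22.5% of all tested genes) and higher for 9 (14.8%, beside 9.87% of all tested genes). Values are on the log2 scale.

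The SR proteins concerned were SRSF6 (-5.02), SRSF2 (-4.07), SRSF11 (-3.71), SRSF5 (-3.30), SRSF1 (-2.31), SRSF7 (-1.80), SRSF3 (-1.68) and SRSF4 (-1.48). RSRP1 had the largest value of all members, -8.62, and TRA2B had -1.65. Among the proteins of the snRNP core and the branch point complexes, SNRPB had -6.38, SF3B5 -5.32 and SF3B4 -1.18. The PRPF proteins PRPF38A (-3.65), PRPF19 (-3.41), PRPF39 (-1.43) and the kinase PRPF4B (-1.18) were lower too, as were HNRNPL (-4.83), HNRNPA2B1 (-2.17), HNRNPUL1 (-1.24) and HNRNPH1 (-1.06).

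The members with a higher value included SNRPF (2.06), SNRPA1 (1.57), SNRPC (1.5), SNRPA (1.38) and SNRPD1 (1.04) of the snRNPs, the U2AF genes U2AF1L4 (1.73) and U2AF1 (1.39), and HNRNPD (1.51). With library totals in place of TMM factors the numbers were 2 higher and 34 lower. Exchanging the stage labels of all libraries would turn the sign of each value.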

How the results depend on the processing

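Of 3660 recomputed log2 fold changes (183 values, 3 comparisons of each of the 61 members, under each alternative), 3463 kept their direction and their side of the thresholds, 100 passed them newly, 20 no longer passed, and 77 that were called in neither setting changed sign. No called value changed sign. Calls lost when 1 library was left out were TRA2B in si-4c against con-4c (9 libraries, -0.93 to -1.0, just under the minimum fold), SNRPF in con-4c against con-2c (2 libraries, -0.99 and -1.0), and HNRNPUL2 (-0.94) and U2AF1L4 (0.95) in si-4c against con-4c (1 library each).

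Replicate numbers in the titles did not pair the libraries: of 18 pairs of libraries with the same number in different groups, 0 had a correlation of deviations over 0.1 (-0.0495 to 0.029), and 3 libraries correlated best with their own number. A replicate block left the members called at 16 higher and 2 lower for con-4c against con-2c, 10 and 1 for si-2c against con-2c, 1 and 16 in si-4c against con-4c, and 0 and 3 in si-2c against con-4c, and changed no named value's side.

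The number called lower in con-4c against con-2c was 1 under DESeq2, RLE size factors, library totals or a filter of 1 CPM in 3 libraries, in place of 2. Library totals also gave 0 lower in si-2c against con-2c, 0 higher in both si-4c against con-4c and si-4c against si-2c, 2 higher and 34 lower for the interaction, and 1 higher in si-2c against con-4c. That scaling moved the median log2 fold change of all tested genes from 0.11 to 0.38 in con-4c against con-2c, from 0.12 to 0.52 in si-2c against con-2c and from -0.11 to -0.37 in si-4c against con-4c. It turned the sign of 6 members that passed the adjusted p for si-2c against con-2c, none of them called (HNRNPA1, SF3B6, PRPF18, PRPF3, SNRPD2 and SRSF10). Without a minimum fold the numbers higher and lower were 28 and 10, 21 and 16, 10 and 30, and 14 and 20 in the first 4 comparisons, 15 and 31 for the interaction, 3 lower in si-4c against con-2c, and 1 and 23 in si-2c against con-4c, since that alternative removes a criterion. The cause of the other moves was not tested.

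Leaving out 1 library gave 16 to 17 higher and 1 to 4 lower in con-4c against con-2c, 10 to 11 and 1 to 2 in si-2c against con-2c, 0 to 2 and 14 to 18 in si-4c against con-4c, 1 to 2 and 10 to 11 in si-4c against si-2c, 8 to 9 and 20 to 22 for the interaction, 0 and 0 in si-4c against con-2c, and 0 to 1 and 2 to 4 in si-2c against con-4c. Depth limited the 12 members with fewer than 100 counts in at least 1 library, lowest for PRPF31 with 12 to 42 and SF3A2 with 21 to 48.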

Other observations

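Some pairs of related members, chosen after their values were seen, had ratios by which a group lay apart from the others. For every 1000 counts of SRSF3 there were 612 ± 68.1 counts of SRSF7 in con-2c, 462 ± 24.0 in si-2c, 812 ± 45.5 in con-4c and 565 ± 31.1 in si-4c, so the 3 si-2c libraries lay below all other libraries. For every 1000 counts of TRA2A there were 3461 ± 574 counts of TRA2B in con-2c, 3678 ± 279 in si-2c, 6411 ± 824 in con-4c and 4003 ± 784 in si-4c, with con-4c above all others. U2AF1 had 273 ± 34.9 counts for every 1000 of U2AF2 in con-2c, 146 ± 37.6 in si-2c, 113 ± 13.8 in con-4c and 158 ± 17.7 in si-4c, with con-2c above all others. These ratios need no scaling between libraries.

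CLK2 and CLK4, kinases of SR proteins, had 24.5 ± 0.902 and 36.2 ± 2.86 CPM in si-4c against 14.1 ± 1.63 and 22.0 ± 1.88 CPM in con-4c, and passed the adjusted p there without the minimum fold (0.80 and 0.72, edgeR adjusted p 0.00156 and 0.00106). Of the 7 kinases tested, 3 passed higher and 2 lower in that comparison, the lower ones being CLK1 and SRPK1 (-0.38, adjusted p 0.00146). EIF4A3, the helicase of the exon junction complex, had its lowest mean in si-2c, 38.5 ± 4.56 CPM, and was below con-4c there (-0.50, edgeR adjusted p 0.00424).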
